A study of Mus musculus with 7 samples.

Results

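The small leucine-rich proteoglycans are secreted proteins of the stroma that carry a curved stack of leucine-rich repeats and, in most cases, chondroitin, dermatan or keratan sulfate chains. They bind collagen fibrils and set their diameter and spacing, and several of them hold growth factors such as TGF-beta or signal through cell surface receptors. In the mammary gland they are made mainly by fibroblasts of the connective tissue around ducts and among adipocytes. Described here are the class I members Dcn (decorin), Bgn (biglycan) and Aspn (asporin), the class II members Lum (lumican), Fmod (fibromodulin), Prelp (prolargin) and Omd (osteomodulin), the class III member Ogn (osteoglycin, also called mimecan), the more distant Podn (podocan), and Vcan (versican), a large proteoglycan that binds hyaluronan, has no leucine-rich repeats and was included as a stromal neighbor. The genes were chosen by name, as every probe that the array files assign to 1 of these 10 symbols, out of 56605 probes on the array. They had 16 probes, of which 15 passed the filter on dim signal and were tested.

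Total RNA came from a single abdominal mammary gland of each of 7 nulliparous FVB mice aged 20 to 25 weeks and killed at diestrus, after the lymph nodes had been cut out. The 3 wild-type mice were littermates of the transgenic mice. The 4 PRA transgenic mice were bigenic: a GAL-4 transactivator under the murine cytomegalovirus promoter drove an additional PR-A gene, the short form of the progesterone receptor, placed behind GAL-4 binding sites. That promoter is not restricted to epithelium, so the model does not confine the added receptor to 1 cell type. Each array compared 1 gland, labeled with Cy5, with a commercial pool of RNA from mouse cell lines, labeled with Cy3, and no dyes were swapped. A log2 ratio of 0 therefore means a gland signal equal to that of the pool, and a ratio of 1 means 2 times the signal.

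All 7 arrays sat on 1 slide. The wild-type arrays filled row 1 and the PRA transgenic arrays row 2, so that position and genotype cannot be told apart. The PRA transgenic arrays were dimmer in both channels: 58.6% to 62.0% of their gene spots were well above background in Cy5 and 49.5% to 52.8% in Cy3, against 64.3% to 67.7% and 55.3% to 56.0% on the wild-type arrays. No spot was saturated. The tissue label fits the markers: adipocyte genes averaged a log2 ratio of 5.91 to 6.53 over the 7 arrays, luminal epithelial genes 2.70 to 3.73 and fibroblast genes 1.75 to 2.30. Skeletal muscle genes differed most among animals of 1 genotype, from -0.78 to 3.32 in wild-type and from -0.58 to 2.80 in PRA transgenic glands. Pgr itself was no check of the genotype labels. Its brightest probe read 7.05, 4.30 and 4.04 in wild-type and 5.38, 4.72, 4.49 and 3.32 in PRA transgenic glands (difference -0.65, limma adjusted p = 0.859), but the reference was detected on 0 arrays for it, so these are ratios to an undetected signal, and whether it lies within the transgene is not known. In whole-gland RNA, fewer cells of a type and less RNA per cell cannot be told apart.

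The array reads each gene through 60-base oligonucleotides, and 4 of them are shown because they cover protein-coding sequence and 3 of the 4 belong to genes that have more than 1 probe. The Prelp and Bgn oligonucleotides fall within the repeats that give the family its name, each having 1 reading frame without a stop, and capitals mark the leucine codons in that frame. The Dcn oligonucleotide runs to the end of the coding sequence, with the stop codon in capitals. The Vcan oligonucleotide has capitals at the 2 cysteine codons of the frame that begins at base 3.
Prelp A_65_P16773: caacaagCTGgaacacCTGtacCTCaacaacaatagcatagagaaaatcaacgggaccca
Bgn A_52_P162486: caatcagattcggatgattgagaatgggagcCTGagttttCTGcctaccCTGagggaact
Dcn A_51_P334104: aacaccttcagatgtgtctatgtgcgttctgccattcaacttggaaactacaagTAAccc
Vcan A_55_P1960208: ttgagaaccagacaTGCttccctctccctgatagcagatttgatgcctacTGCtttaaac
In the Prelp oligonucleotide the leucine codons were codons 3, 6 and 8, which is the spacing of 3 and then 2 residues seen in the core of a leucine-rich repeat. In the Bgn oligonucleotide they were codons 11, 14 and 17. On mm9 the Prelp oligonucleotide covers chr1:135809343-135811065, a span of 1723 bases for 60 bases of probe, so it crosses an exon junction. The Bgn oligonucleotide lies at chrX:70738554-70738613, that of Dcn at chr10:96980233-96980292 and that of Vcan at chr13:89851810-89851869. Exon annotation of that build was not used here.

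Dcn, Lum, Prelp and Podn stood well above the reference in every gland, and the other genes lay near or below it. By the brightest probe of each gene, 6 of 10 genes exceeded the cell line pool on all 7 arrays, whereas Bgn and Vcan were below it on all 7. Over all probes tested, 33.0% were above the pool on all 7 arrays. These ratios describe the gland against a pool of cultured cells and say nothing about genotype. Levels are not compared between genes, since each probe hybridizes with its own efficiency.

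**Figure D1:**
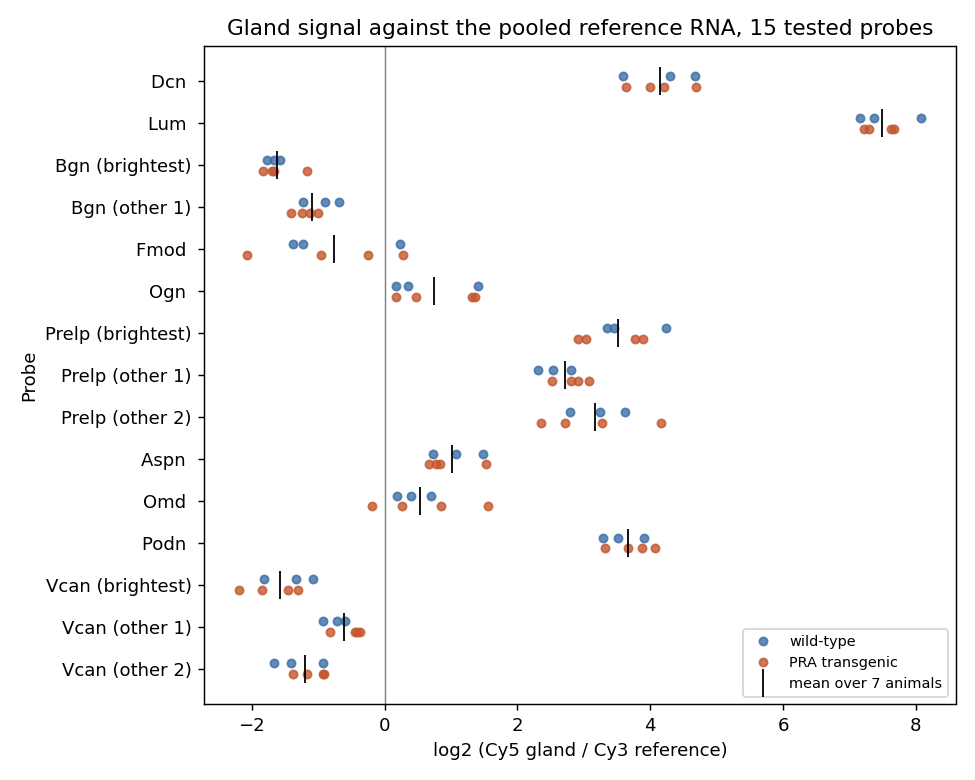
Log2 ratio of gland (Cy5) to reference (Cy3) signal for the 15 tested probes, with 1 point per animal (blue, 3 wild-type; orange, 4 PRA transgenic) and a bar at the mean over the 7 animals. Lum lies farthest to the right, between 7.16 and 8.08, the Bgn and Vcan probes lie left of 0 on every array, and the Prelp probes differ from one another in where they lie.

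Lum, which encodes a keratan sulfate proteoglycan of collagen fibrils, had the highest ratio of the family. Its log2 ratios were 8.08, 7.37 and 7.16 in wild-type and 7.22, 7.29, 7.68 and 7.63 in PRA transgenic glands. The mean over all animals was 7.49, 180 times the signal of the reference, and 99.9% of tested probes had a lower mean ratio. Dcn, the best studied ligand of TGF-beta in the family, read 4.68, 4.30 and 3.59 in wild-type and 4.20, 3.63, 3.99 and 4.68 in PRA transgenic glands. The highest and lowest Dcn values of each genotype were nearly the same, and the mean was 17.8 times the reference. Lum and Dcn are neighbors, with probes 54918 bases apart on chromosome 10. Podn, a podocan thought to restrain smooth muscle cell growth, read 3.52, 3.90 and 3.29 in wild-type and 4.07, 3.33, 3.66 and 3.87 in PRA transgenic glands, 12.7 times the reference on average.

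Prelp, which ties basement membranes to the collagen beneath, read 3.45, 4.24 and 3.35 in wild-type and 3.77, 3.03, 2.91 and 3.89 in PRA transgenic glands. The 2 lowest glands were transgenic and the highest was wild-type, but the other values were interleaved. Aspn, which binds collagen and calcium, read 0.73, 1.48 and 1.07 against 0.78, 0.84, 0.67 and 1.53. Ogn, a small keratan sulfate proteoglycan first described in bone, read 1.40, 0.35 and 0.17 against 1.32, 0.47, 0.17 and 1.36. In both genotypes some glands read 0.17 to 0.47 for Ogn and others 1.32 to 1.40, with none between. Omd, known from mineralized tissue, read 0.71, 0.19 and 0.40 against 0.27, 0.85, -0.19 and 1.55, and the PRA transgenic glands held both its lowest and its highest value. Aspn, Omd and Ogn form a cluster on chromosome 13, where the Aspn and Omd probes lie 25309 bases apart and those of Omd and Ogn 31643 bases apart.

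Fmod, which binds the same collagen region as Lum, spread the most. It read -1.22, -1.37 and 0.24 in wild-type and -2.07, 0.28, -0.95 and -0.24 in PRA transgenic glands, a range of 5.12-fold over the 7 animals. It was above the reference in 1 gland of each genotype. Bgn, which can signal through Toll-like receptors when released from the matrix, read -1.58, -1.67 and -1.77 in wild-type and -1.70, -1.66, -1.84 and -1.17 in PRA transgenic glands. Its mean was 3.09-fold below the reference and its spread was the smallest of the 10 genes. Vcan, at its brightest probe, read -1.33, -1.81 and -1.08 against -2.20, -1.46, -1.30 and -1.84, a mean 2.98-fold below the reference.

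**Figure D2:**
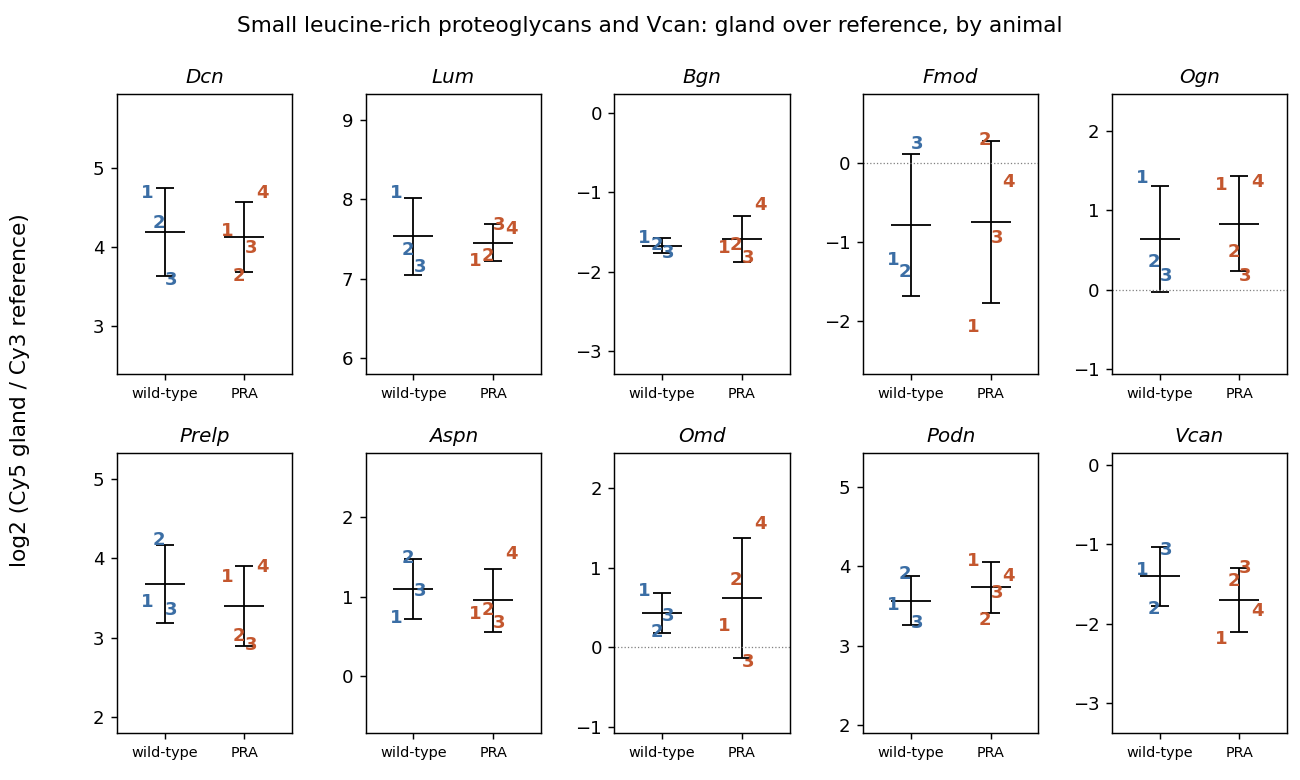
Log2 ratio of gland to reference for the brightest probe of each gene. Digits are the replicate numbers of the animals, black bars the mean and SD of each genotype (3 wild-type, 4 PRA transgenic), and every panel spans the same number of log2 units. In all 10 panels the genotypes overlap, Bgn is the tightest and Fmod the widest.

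None of the 10 genes differed between PRA transgenic and wild-type glands beyond the spread among animals. The test was limma's moderated test on log2 ratios with Benjamini-Hochberg adjustment over the 34288 probes tested. At an adjusted p under 0.05 it called 0 of 10 genes, against 0.0117% of all probes. At an unadjusted p under 0.05 it also called 0 of 10, against 9.02% of all probes, and the methods' t-test, an unpaired test on the same values, called 0 as well. For no member probe did the genotypes fail to overlap, against 9.95% of all probes. Fold changes leaned neither way: 5 genes had a higher and 5 a lower mean in PRA transgenic glands, with a median log2 fold change of -0.01 beside 0.02 over all probes.

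The intervals show how large a change could have been missed. The lowest adjusted p was that of Vcan (0.795), with a log2 fold change of -0.29 (SE 0.27, 95% interval -0.92 to 0.34). Prelp followed with -0.28 (SE 0.33). Dcn differed by -0.06 (SE 0.33, interval -0.83 to 0.70) and Lum by -0.08 (SE 0.25, interval -0.66 to 0.50). The narrowest interval was that of Bgn, from -0.34 to 0.50 around a difference of 0.08, or 0.791 to 1.42-fold. The differences of Aspn (-0.14), Podn (0.16), Ogn (0.19) and Omd (0.19) were of the same order, with SEs of 0.27, 0.22, 0.41 and 0.40. That of Fmod was 0.04 with an interval from -1.43 to 1.51, so that a change of 2-fold in either direction was within it. For 6 of 10 genes the interval lay wholly within 2-fold, and for Fmod, Ogn, Omd and Prelp it did not.

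**Figure D3:**
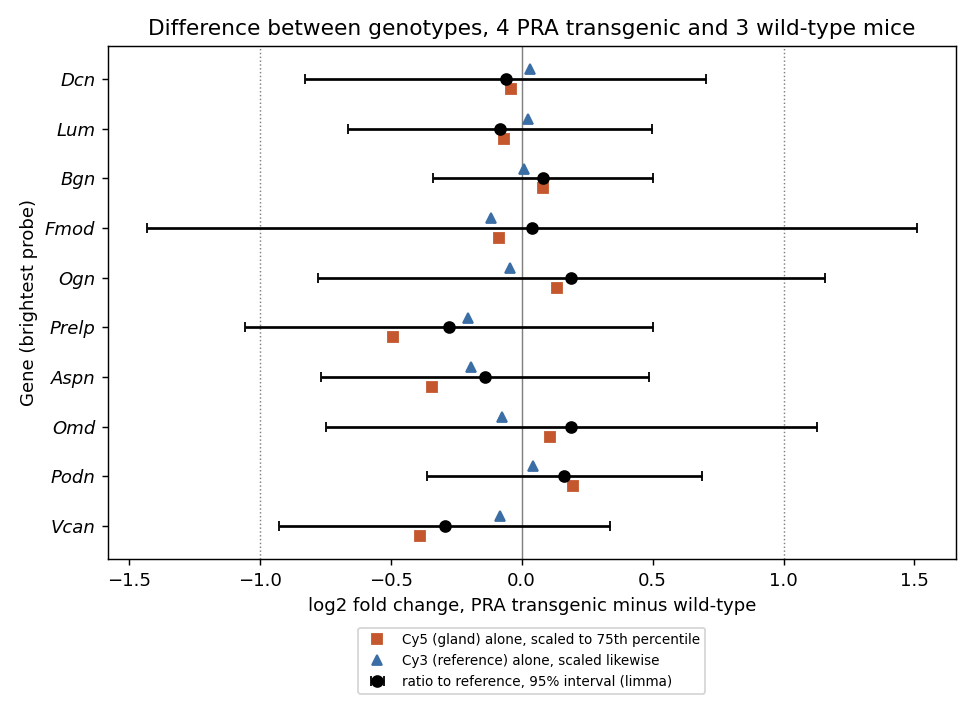
Log2 fold change of PRA transgenic over wild-type for the brightest probe of each gene: black circles, ratio to reference with its 95% interval; orange squares, gland channel (Cy5) alone; blue triangles, reference channel (Cy3) alone, both single channels scaled to the 75th percentile of their array. Dotted lines mark 2-fold. All 10 intervals include 0, and Prelp, Aspn and Vcan lie farther left in Cy5 alone than as a ratio.

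With Cy5 alone, 4 genes had a higher and 6 a lower mean in PRA transgenic glands, and 0 of 10 passed an unadjusted p under 0.05, against 8.73% of all probes. Of the 10 genes, 9 had the same sign in both measures. The exception was Fmod (-0.09 in Cy5 alone). Prelp moved to -0.49, Vcan to -0.39 and Aspn to -0.34, and their SEs were 0.52, 0.26 and 0.34. Without scaling, all 10 genes were lower in Cy5 in PRA transgenic glands. The median of all probes was then -0.20, and the Cy3 signal of the common reference was lower for all 10 genes too (differences of -0.42 to -0.17, beside a median of -0.22 over all probes).

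The family varied among animals of 1 genotype more than most probes did. The SD within genotype had a median of 0.44 over the 10 genes, against 0.21 over the 24664 probes for which gland and reference were both detected on every array. Fmod had an SD within genotype of 0.97, higher than 98.8% of those probes. The next were Ogn with 0.63 and Omd with 0.61. Bgn, with 0.23, was higher than 56.7% of them. The median SD of other stromal gene lists was not computed, so this spread is not shown to be particular to the family.

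PRA transgenic replicate 4 stood out for these genes, though not for them alone. It had the highest value for 4 of 10 genes (Dcn, Bgn, Aspn and Omd) and lay above the mean of the 7 animals for 9 of 10, Vcan excepted, with a median deviation of 0.49. Wild-type replicate 3 and PRA transgenic replicate 3 each held the lowest value for 4 genes. The collagen list described below was also highest in PRA transgenic replicate 4 (mean 0.95, the other 6 arrays 0.29 to 0.89). So was the list of processing and degrading enzymes (1.32, the others 0.77 to 1.29). The list of other small leucine-rich proteoglycans was not (1.70, the others 1.11 to 2.14). Of limma's array weights over all probes, that of this array was the lowest (0.66, the others 0.76 to 1.62). On the array of PRA transgenic replicate 4 the fibroblast list averaged 2.30, as did that of wild-type replicate 1, with 14 of 14 markers detected on each of the 7 arrays. Skeletal muscle genes averaged 2.80 on that array and -0.58 to -0.47 on the other PRA transgenic arrays, with 11 of 11 markers detected on it and 9 or 10 on the others. On the arrays of wild-type replicates 1, 2 and 3 they averaged 2.06, -0.78 and 3.32. Macrophage genes averaged 3.28 on the array of PRA transgenic replicate 4, above the 2.36 to 2.89 of the other 6 arrays. The part of these cells in the values of the proteoglycans was not tested. Without this animal, the number of the 10 genes called stayed at 0.

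**Figure D4:**
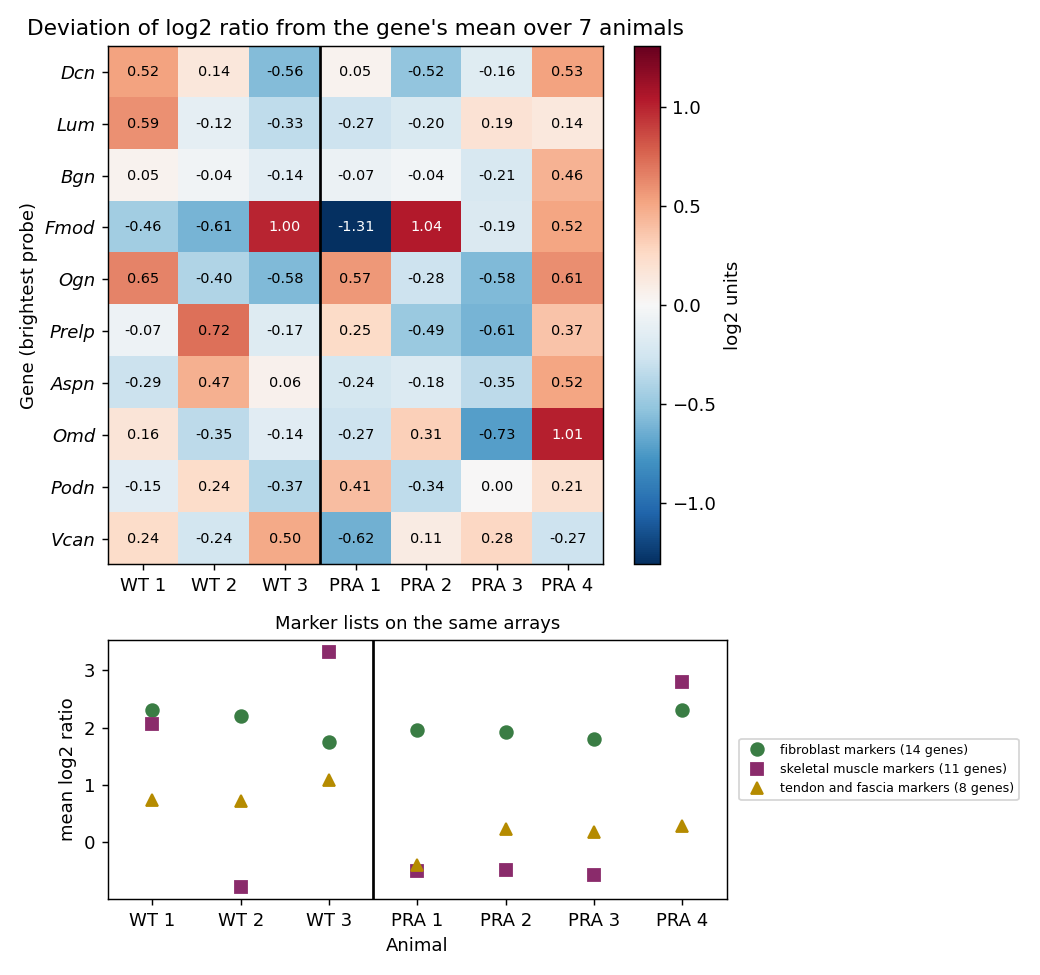
Upper panel, deviation of each gene's log2 ratio from its own mean over the 7 animals (red, above; blue, below; wild-type left of the line, PRA transgenic right). Lower panel, mean log2 ratio of the fibroblast, skeletal muscle and tendon and fascia marker lists on the same arrays. PRA replicate 4 is red for every gene but Vcan, and the muscle list is high on WT 1, WT 3 and PRA 4. The tendon list is drawn with all 8 genes, 3 of them without a detected reference.

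Fmod, which is abundant in tendon and fascia, went its own way among the animals. It was highest in PRA transgenic replicate 2 and wild-type replicate 3 (deviations 1.04 and 1.00) and lowest in PRA transgenic replicate 1 (-1.31). Of 10 tendon and fascia markers 8 were tested, Tnmd and Cilp2 being below the filter, and for 3 of the 8 the reference was detected on no array. The other 5, with Egr1 among them, averaged -1.40 to -1.01 in wild-type and -1.80 to -1.53 in PRA transgenic glands. Egr1 is not particular to tendon, and it alone of the 5 had genotypes that did not overlap (log2 fold change -1.51). The log2 fold changes of Tnc, Comp, Mkx and Scx were -0.88, -0.23, -0.13 and 0.04. Together the 5 read -1.01 in wild-type replicate 3, -1.67 in PRA transgenic replicate 1 and -1.79 in PRA transgenic replicate 2. In Cy5 alone all 8 averaged -1.41 to -0.98 and -1.88 to -1.41, scaled to the array. Their part in the Fmod values was not tested.

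Likeness between members was measured as the root mean square difference of 2 profiles over the 7 animals, each centered on its mean, and is a description without a test. The closest of the 45 pairs was Bgn and Aspn (0.26), which are on different chromosomes. This measure is lower for flat profiles, and Bgn had the flattest of the family (SD 0.22 over the 7 animals). Dcn and Lum, neighbors on chromosome 10, ranked 4 of 45 with 0.29. The neighbors Aspn and Omd ranked 18 with 0.47, and Ogn and Omd ranked 22 with 0.49. The third pair of that cluster, Ogn and Aspn, 57011 bases apart, ranked 32 with 0.63. Fmod and Prelp, 137005 bases apart on chromosome 1, ranked 44 of 45 with 1.09, but Fmod had ranks of 34 to 45 in all its 9 pairs. Of 16791 genes measured in both channels on all arrays, the 5 nearest to the mean profile of the family were Sdk1 (root mean square difference 0.04), Cdc14b, Calhm2, BF301431 and Sp140 (0.06), where the median gene stood at 0.29. The mean profile itself departed from flat by only 0.20, so the ranking rests mainly on the rise in PRA transgenic replicate 4 (0.41).

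Bgn, Prelp and Vcan have several probes each, and these did not always move together. The 3 Vcan probes differed by -0.29, 0.23 and 0.24 between genotypes. The first is the brightest and lies at chr13:89795080-89795139, nearest of the 3 to the 3′ end of this minus-strand gene, and the second is the coding oligonucleotide printed above. Within each array the brightest probe minus the printed one was -0.74, -0.88 and -0.35 in wild-type and -1.37, -1.05, -0.93 and -1.39 in PRA transgenic glands. All 4 transgenic values were lower than all 3 wild-type ones, by a mean of -0.53 (exact permutation test over samples, two-sided, p = 0.0571, adjusted over 7 pairs 0.2). In Cy5 alone the same difference was -0.57, and in Cy3 it was -0.04. The third Vcan probe, which crosses an exon junction, had nearly the same difference between genotypes as the printed one. The mean gap between those 2 changed by -0.00195 between genotypes (p = 1 by the exact test). By animal that gap ran from 0.33 to 0.93, so the 2 probes were alike in their genotype means only.

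For Prelp the brightest probe, at chr1:135806934-135806993, read 1.13 log2 units above the printed junction probe in wild-type and 0.57 above it in PRA transgenic glands. The values were 0.92, 1.43 and 1.04 against 0.85, 0.51, 0.09 and 0.81, which did not overlap (difference -0.56, exact permutation p = 0.0857, adjusted 0.2). Over all genes with several tested probes, 13.5% of probe pairs had genotypes that did not overlap. The lowest p that 35 splits of 7 animals allow is 0.0286. The other 5 pairs overlapped between genotypes, and for Bgn the difference was 0.34 (exact permutation p = 0.143). A further Bgn probe was not tested, since Cy5 was too dim on all arrays. Of the 15 probes, the printed Prelp probe had the lowest unadjusted p, 0.169, with a fold change of 0.28 on the log2 scale, opposite in sign to the brightest one.

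**Figure D5:**
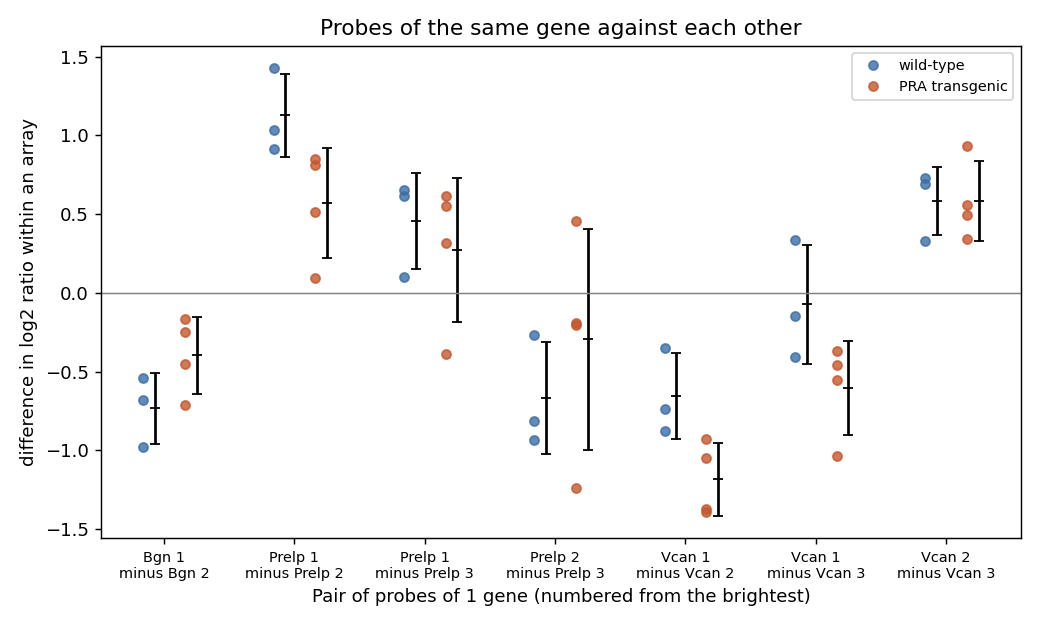
Difference in log2 ratio between 2 probes of the same gene on the same array, for each pair of tested Bgn, Prelp and Vcan probes, numbered from the brightest. Points are animals (blue, wild-type; orange, PRA transgenic) and black bars the mean and SD. The genotypes do not overlap for the first Prelp pair and the first Vcan pair and overlap for the other 5.

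The reference channel was less steady for Prelp than for nearly all probes, although every array received the same reference RNA. At its brightest probe the scaled log2 Cy3 signal was 2.21, 3.02 and 2.35 on the wild-type arrays and 2.39, 2.28, 2.02 and 2.62 on the PRA transgenic arrays. This range of 1.00 was wider than that of 97.8% of well measured probes, whose median range was 0.22. The scaled log2 Cy5 signal was 5.65, 7.25 and 5.69 in wild-type and 6.13, 5.29, 4.91 and 6.49 in PRA transgenic glands. Both channels were thus highest on the array of wild-type replicate 2 and lowest on that of PRA transgenic replicate 3. The Cy3 range was 1.53 at the printed Prelp probe and 0.76 for Podn, which was also highest in both channels on the array of wild-type replicate 2. For Bgn it was 0.06. The third Prelp probe was detected in Cy3 on only 1 array, so its ratios rest on a reference signal near the limit.

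Genes that build, modify, surround or bind these proteoglycans were listed in 7 groups with 96 genes, of which 83 were tested. None passed an adjusted p under 0.05 in limma. At an unadjusted p under 0.05, 3 were higher and 7 lower in PRA transgenic glands, against 4.54% higher and 4.48% lower over all probes. Chst13 and Hapln4 were detected in Cy5 on no PRA transgenic array and passed the filter through wild-type, and without them 6 were lower. Chst4, which is not among those counted, also passed through wild-type alone, with Cy5 detected on 3 of 4 PRA transgenic arrays. Of the other small leucine-rich proteoglycans, 6 of 9 were tested (Chad, Chadl, Ecm2, Kera, Podnl1 and Tsku), and 0 had an unadjusted p under 0.05. The same held for the 3 of 7 lecticans and link proteins tested, the 6 of 8 genes of keratan sulfate synthesis and the 14 of 17 processing and degrading enzymes.

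Among 24 tested genes for chondroitin and dermatan sulfate synthesis, 2 were higher and 3 lower at an unadjusted p under 0.05, with Chst13 among the 3. Dse, the epimerase that turns chondroitin into dermatan sulfate on Dcn and Bgn, read 0.66, 0.87 and 0.32 in wild-type and 0.04, -0.50, -0.21 and 0.32 in PRA transgenic glands. The difference was -0.71 (SE 0.23, limma adjusted p = 0.462), and the lowest wild-type and highest transgenic values met. Ust, a sulfotransferase that acts on uronic acid, read 0.86, 1.34 and 0.77 against 0.54, 0.10, 0.57 and 0.10. Its difference of -0.66 (SE 0.20, adjusted p = 0.443) was -0.30 in Cy5 alone, and the reference signal differed by 0.37. Xylt1, which attaches the first sugar of the chains, read 0.15, 0.05 and 0.13 against 0.57, 0.59, 0.39 and 0.57. That difference of 0.42 (SE 0.11, adjusted p = 0.405) turned to -0.22 in Cy5 alone, with a reference signal detected on only 3 arrays. Chst13, a chondroitin 4-O-sulfotransferase, was well above background in Cy5 on all 3 wild-type arrays and on none of the PRA transgenic arrays, which were dimmer as a whole. It passed the filter through the wild-type arrays alone, so its p is no support for a difference (adjusted p = 0.33 in limma). For the 2 wild-type glands with a usable spot, the lower bound on the difference was 1.38-fold. That bound rests on the same selected values, so it is no support either.

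Among the 12 collagen genes, 4 had a higher and 8 a lower mean in PRA transgenic glands, and 2 of the lower ones had an unadjusted p under 0.05. Col3a1, the fibrillar collagen III chain, read 2.79, 2.84 and 2.71 in wild-type and 2.00, 2.38, 2.06 and 2.57 in PRA transgenic glands. The 3 wild-type values were all higher, by 0.53 on average (log2 fold change -0.53, SE 0.17, limma adjusted p = 0.453). Col12a1, a collagen on the fibril surface to which Dcn and Fmod bind, read -2.11, -1.93 and -2.07 against -2.48, -2.24, -2.93 and -2.96 (log2 fold change -0.62, SE 0.20, adjusted p = 0.462). The genotypes did not overlap for either, as for 9.95% of all probes. In Cy5 alone the differences were -0.36 for Col3a1 and -0.57 for Col12a1. Col1a1 and Col1a2, the chains of collagen I, had log2 fold changes of -0.32 (SE 0.23) and -0.12 (SE 0.21).

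Of 18 ligands and receptors, 1 was higher and 2 were lower at an unadjusted p under 0.05. Tlr4, a receptor for soluble Bgn and Dcn, read 0.44, 0.10 and -0.41 in wild-type and 0.92, 0.54, 0.76 and 1.26 in PRA transgenic glands (log2 fold change 0.83, SE 0.25, limma adjusted p = 0.425). All 4 transgenic glands exceeded all 3 wild-type glands as a ratio, and the genotypes did not overlap in Cy5 alone either (difference 0.69). Cd44, the hyaluronan receptor that shares its ligand with Vcan, read -2.09, -1.79 and -2.60 against -2.95, -3.01, -2.83 and -2.53 (log2 fold change -0.67, SE 0.22, adjusted p = 0.462). Bmp2, a growth factor that Bgn binds, differed by -1.02 (SE 0.27, adjusted p = 0.405) as a ratio and by -0.39 in Cy5 alone, and its reference signal was too dim for detection on all 7 arrays.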

How the data were processed

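Per the file headers, the scanner intensity values deposited by the authors were made with Agilent Feature Extraction 11.5.1.1 (version 12.0 in the submitters' processing notes). That software subtracts background, corrects the dyes and replaces dim signals with surrogate values. The authors also deposited a table of log2 ratios, centered on the median of all samples for each probe. Its values differed by less than 0.01 from the ratios computed here after the same centering, and it served as an alternative. Control and outlier spots were left out, spots of a probe were averaged, and 34288 of 56605 probes were kept, namely each probe that the scanner software flagged as well above background in Cy5 on every array of 1 or both genotypes.

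The log2 ratio of processed Cy5 to Cy3 was fitted over all 7 arrays in R 4.3.3 with limma 3.58.1 (lmFit, eBayes), with Benjamini-Hochberg adjustment over all probes kept. In simulated data with 200 changed probes of 34248, 130 were called together with 7 unchanged ones. For Cy5 alone, the 75th percentile of the array was subtracted. Differences between probes of a gene, chosen after the data were seen, were tested by exact permutation over animals (scipy 1.17.1). Signals of Chst13 were bounded per channel, after quantile normalization of the mean log intensity, by the lowest detected signal. The number of arrays limits the precision. Each array is a separate animal by the labels.

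The genes named are all members by their brightest probe, genes of the 7 pathway lists with an unadjusted p under 0.05 (at most 4 a list, by lowest p) and the 5 nearest profiles. Col1a1 and Col1a2 were added after their values were seen. Members and lists were chosen with earlier results of these data known. Marker lists covered fibroblasts, tendon and fascia, skeletal muscle, adipocytes, luminal and basal epithelium, endothelium, pericytes, macrophages, lymphocytes and Schwann cells. Alternatives were normexp (offset 50) with loess, the series table, no or a stricter filter, Cy5 alone scaled or not, quantile normalization, the methods' t-test, an intensity trend, array weights, a replicate block, each array left out, and the median over probes. Probe positions are those of the files (mm9). The authors' comparison lists were not used.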

Additional observations from a re-analysis of the deposited data

Results flagged for a closer look

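In 3 of 35 sets of 4 PRA transgenic values examined, 1 animal stood apart from the rest, where chance gives about 1 in 20 (1.75 of 35). The gap of that animal to its nearest neighbor, divided by the range of the 4, was above Dixon's critical value for 4 samples. None of the 10 proteoglycan genes was among the 3. For the skeletal muscle list the value was 0.970, with PRA transgenic replicate 4 at a mean log2 ratio of 2.80 and the others at -0.58 to -0.47. For the tendon and fascia list it was 0.852, with replicate 1 at -0.39 and the others at 0.18 to 0.28. For the endothelium list it was 0.892, with replicate 2 at 4.83 and the others at 5.21 to 5.26. Without genes whose reference was detected on no array, the tendon value fell to 0.501, under the critical value, while the endothelium value was 0.872. In Cy5 alone the values were 0.983 for muscle, 0.692 for tendon and 0.296 for endothelium. Both settings were added after the data were seen.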

How the results depend on the processing

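In all 18 alternatives that refit the data, 0 of the 10 genes passed an adjusted p under 0.05, and the lowest adjusted p of any of them was 0.329. The count at an unadjusted p under 0.05 was 0 except in Cy5 without scaling, where it was 1 (Vcan). Of 209 single values, 207 moved by less than the spread between animals. The others were Aspn in unscaled Cy5 (-0.55) and the median over the Vcan probes (0.23), which has the opposite sign to the brightest probe. The sign of a fold change turned 28 times, and at least once for each of the 10 genes, none of them called. Over all probes 4 were called, against 15 without the filter, 11 in unscaled Cy5, 11 with array weights, 1 by the methods' t-test and 1 to 12 with 1 array left out (2 without wild-type replicate 3, 1 without PRA transgenic replicate 3, 12 without PRA transgenic replicate 4). The cause was not tested. With the replicate number as a block 0 were called, with 3371 at an unadjusted p under 0.05. The numbers did not pair the animals (correlations of deviations 0.10, -0.30 and 0.04). Intervals wider than 2-fold for Fmod, Ogn, Omd and Prelp limit what 7 arrays can show.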

Other observations

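Cell type markers were read from the same arrays as values only. White adipocyte genes had a higher mean in PRA transgenic glands for 8 of 8 genes, with a median log2 fold change of 0.12 that was -0.09 in Cy5 alone, and 0 of 8 had an unadjusted p under 0.05. Basal epithelial and smooth muscle genes had a median of 0.08 over 9 genes and macrophage genes one of -0.13 over 8. Pericyte genes had a median of 0.18 over 6, Schwann cell genes 0.08 over 7, endothelial genes 0.17 over 8 and luminal genes -0.11 over 10. Fibroblast genes had a median of -0.18 over 14 genes, 10 of them lower, and 0 had an unadjusted p under 0.05. Lymphocyte genes had a lower mean for 8 of 8 genes tested, with 1.55 on the array of wild-type replicate 1 and -1.05 to -0.46 on the other 6. The median log2 fold change was -0.66 for lymphocyte genes (-1.11 in Cy5 alone), -0.72 for the 8 tendon and fascia genes (-0.55) and -1.34 for the 11 skeletal muscle genes (-2.23). At an unadjusted p under 0.05, 2 genes of the tendon list, 1 lymphocyte gene (Cd8a) and 1 pericyte gene (Kcnj8) were lower. At the same threshold 1 endothelial gene (Emcn) and 1 luminal gene (Cldn3) were higher, and 0 of any other marker list passed. Over all probes, 4.48% were lower and 4.54% higher at that threshold. Those of the tendon list were Cilp and Egr1, of which Egr1 is not particular to tendon. The difference of Cilp was -1.83 as a ratio and -0.65 in Cy5 alone, and its reference signal differed by 1.19. The difference of Cldn3 was 0.41 as a ratio but -0.52 in Cy5 alone, and its reference signal differed by -0.92. The other genes named kept their sign in Cy5 alone. Cd8a was detected in Cy5 on all 3 wild-type arrays and on 1 of the 4 PRA transgenic arrays. It thus passed the filter through the wild-type arrays alone, so its p is no support for a difference. For Cilp, Cd8a and Kcnj8 the reference was detected on 0 arrays, and for Emcn on 1. These genes were named after their values were seen.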
